A study of Homo sapiens with 6 samples.

Results

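The genes described here are 52 genes of the lysosome and of autophagy, taken by symbol from the per-gene tables of an RNA sequencing study, where all 52 were found among 58735 listed genes. The study asked what SCH, an aqueous extract of the herb *Salvia chinensis* Benth, does to triple-negative breast cancer (TNBC) cells, and sequenced RNA of MDA-MB-231 cells after treatment. Of the 52 genes, 51 had enough reads to be tested, out of 14736 tested genes, and CLN3, a lysosomal membrane protein gene lost in a form of Batten disease, did not, with 5, 3 and 3 counts under vehicle and 2, 10 and 3 under SCH.

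MDA-MB-231 is an established human TNBC line with a mesenchymal appearance, labelled wild type in all samples. The labels give its medium as RPMI-1640, whereas the methods of the paper name DMEM for this line. The 3 vehicle samples received vehicle for 24 h and the 3 SCH samples received SCH at 100 mg/l for 24 h, each described as a biological repeat of its group. Total counts were 20291379, 18714240 and 18334857 in the vehicle samples and 16836369, 17979434 and 18414924 in the SCH samples. All results come from 1 cell line at 1 dose and 1 time, and in a bulk sample fewer cells of a kind and less RNA per cell cannot be told apart.

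Most markers were as the labelled line has them. VIM, CD44, CAV1 and AXL, genes of the mesenchymal state, stood at mean FPKM (fragments scaled to gene length and library depth) of 263, 96.6, 103 and 293 under vehicle. Gene length here is that of all annotated exons together, which can exceed the expressed transcript. Levels and shares between genes are therefore approximate. ESR1, the oestrogen receptor, had at most 4 counts in any sample and PGR, the progesterone receptor, at most 1, while ERBB2, encoding HER2, had a mean FPKM of 6.67. Of the epithelial genes known to be low in this line, CDH1, encoding E-cadherin, had at most 6 counts, while EPCAM was present with 280 to 347 counts under vehicle (mean FPKM 6.53) and fell by 0.52 on the log2 scale. Genes of leukocytes, endothelium and fibroblasts were at or near 0, with DCN at 0 in every sample. The most abundant of them were PTPRC, a leukocyte gene with 34 to 39 counts under vehicle and 3 to 9 under SCH, and PECAM1, an endothelial gene with 15 to 26 and 16 to 30. Within the markers of the line, VIM, CAV1 and AXL fell under SCH, with log2 fold changes of -0.56, -1.17 and -0.84. CD44 gave 0.033 with overlapping groups, and ERBB2 rose by 0.29. The relation of these markers to the lysosomal genes was not tested.

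As background, the lysosome is the acidic compartment in which hydrolases break down proteins, lipids and sugars, and the vacuolar ATPase (V-ATPase) pumps the protons that keep it acidic. Autophagy brings cytoplasm to it: the ULK kinase complex starts a membrane, a PI3-kinase complex and the WIPI proteins mark it, a conjugation machinery attaches ATG8 proteins such as LC3 to it, and receptors tie cargo to those ATG8 proteins. Many of these genes are known targets of the transcription factors TFEB, TFE3 and MITF, which bind short E-box sequences. TFEB and TFE3 are controlled largely by where in the cell the protein sits.

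After 24 h of SCH more of the genes rose than fell. By edgeR's quasi-likelihood test with Benjamini-Hochberg adjustment over all tested genes and a threshold of 0.05, 29 of 51 rose (56.9%) and 2 fell (3.92%), the E1-like enzyme gene ATG7 and the conjugation gene ATG16L1. Among all 14736 tested genes 29.3% rose and 29.4% fell, so SCH changed 58.7% of them, and the 60.8% of the lysosome and autophagy genes that changed is near that background. The directions differed from it, with a median log2 fold change of 0.22 over the 51 genes and of -0.0034 over all tested genes. Values in the SCH samples lay above every vehicle value for 30 of the 51 genes and below for 5, against 31.1% and 31.3% of all tested genes (62.4% in either direction).

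The changes were small for most genes. Log2 fold changes ran from -0.48 to 1.65, and only ULK1 and GABARAPL1 passed an absolute log2 fold change of 1, a size that 8.77% of tested genes reached with a call. Against the vehicle mean, the median of the genes on the log2 scale was 0.0029, 0.016 and -0.038 in the vehicle samples and 0.18, 0.20 and 0.23 in the SCH samples, which do not overlap. Their summed FPKM was 1216.0, 1226.0 and 1186.6 under vehicle and 1498.9, 1490.5 and 1474.2 under SCH. The SCH samples were thus alike in the summed level of these genes, and each stood above each vehicle sample.

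The autophagy genes and the lysosomal genes both leaned upward. Of 21 autophagy genes 13 rose and 2 fell, with a median log2 fold change of 0.32, and of 27 tested lysosomal genes 16 rose and none fell, with a median of 0.20. The plot of fold changes by role shows this split together with the groups that did not follow it, and counts by role stand beside the 29.3% raised and 29.4% lowered among all tested genes.

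**Figure D1:**
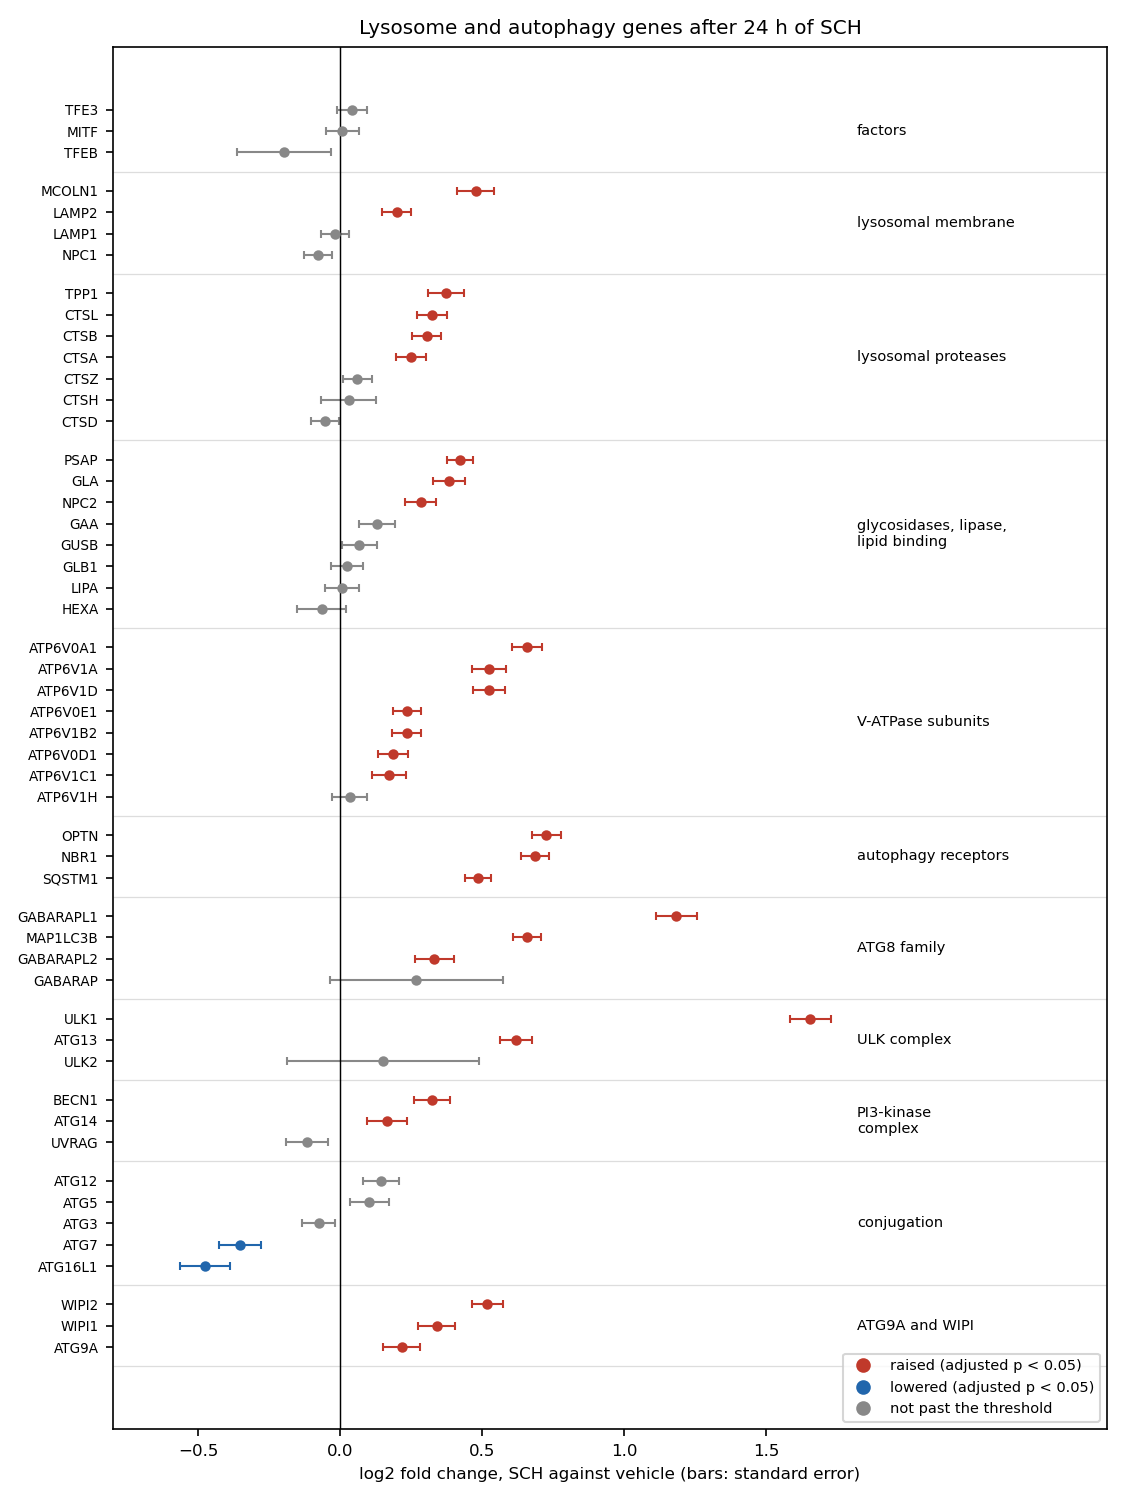
Log2 fold change of SCH against vehicle (x axis) for the 51 tested lysosome and autophagy genes (y axis), grouped by role, with points for the estimate and bars for its standard error. Red points rose, blue points fell and grey points did not pass an adjusted p of 0.05; ULK1 lies farthest right at 1.65, and the blue points, ATG7 and ATG16L1, are both conjugation genes.

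The 3 transcription factor genes showed no change past the threshold. TFE3, the most abundant of them at a mean FPKM of 25.4 under vehicle, had normalized CPM (counts scaled to library size with TMM factors) of 116.9, 115.5 and 105.8 under vehicle and 114.3, 116.9 and 116.9 under SCH, with a log2 fold change of 0.042 (95% interval -0.068 to 0.15). MITF, the melanocyte lineage factor, had 88.1, 81.8 and 96.4 CPM under vehicle and 87.5, 90.4 and 89.8 under SCH, with a log2 fold change of 0.0079 (-0.12 to 0.13). The groups overlap for both genes.

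TFEB, the factor best known for driving lysosomal genes, was scarce, at a mean FPKM of 0.713 under vehicle. Its CPM was 4.05, 4.29 and 4.16 under vehicle and 3.27, 3.92 and 3.68 under SCH, with a log2 fold change of -0.20 (-0.54 to 0.14, adjusted p = 0.316 by edgeR's quasi-likelihood test). The SCH samples lay below the vehicle samples without passing the test. Of the summed FPKM of the 3 factors, TFE3 made up 66.8% ± 2.83 (SD, n = 3) under vehicle and 67.5% ± 0.186 under SCH, and TFEB 1.87% ± 0.083 and 1.60% ± 0.12. Transcript levels do not measure where these proteins sit in the cell.

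Promoters were read from RefSeq (GRCh38.p14), 250 bases before to 50 after each start, for 42 of the 52 genes, with 56 starts. LAMP2, CTSB, HEXA, PSAP, ATP6V0E1, ATP6V1A, ATP6V1B2, ATP6V1C1, ATP6V1H and UVRAG were not in that table. The E-box CACGTG was searched, together with the longer CLEAR element, which is CACGTG with GT before it and AC after it. Both read the same on either strand, so each match counts for both. CACGTG was present in 10 of the 56 promoters (17.9%), against 7.26% of all 35116 promoters and 9.22% of the 15095 promoters of tested genes, and the CLEAR element in 2 of the 56, those of MCOLN1 and GAA, against 0.353% of all and 0.663% of those of tested genes. Among 146 promoters of other pathway genes 18.5% held CACGTG and 3.42% the CLEAR element.

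Among tested genes CACGTG was found in the promoters of 8, the 4 raised genes MCOLN1, CTSA, ATP6V0D1 and ATG14 and the 4 genes LAMP1, GAA, CTSD and ATG3 that did not pass the test, and it was also in those of CLN3. The following 6 promoters are those of the 4 raised genes, of LAMP1 for its number of matches and of GAA for its CLEAR elements, with the matches in capitals and the rest in lower case, 5′ to 3′ on the strand of the gene. MCOLN1 at chr19:7522374-7522673 (plus strand), CTSA at chr20:45891085-45891384 (plus strand), ATP6V0D1 at chr16:67481108-67481407 (minus strand) and ATG14 at chr14:55411781-55412080 (minus strand) belong to genes that rose. LAMP1 at chr13:113296989-113297288 (plus strand) and GAA at chr17:80101331-80101630 (plus strand) belong to genes that did not pass the test, and were chosen after their values were seen.
MCOLN1: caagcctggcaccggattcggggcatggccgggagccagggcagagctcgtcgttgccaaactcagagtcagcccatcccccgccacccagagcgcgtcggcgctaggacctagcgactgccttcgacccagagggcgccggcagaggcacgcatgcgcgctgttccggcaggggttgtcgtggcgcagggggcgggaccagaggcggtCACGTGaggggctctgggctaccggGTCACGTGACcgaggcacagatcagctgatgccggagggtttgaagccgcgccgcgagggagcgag
CTSA: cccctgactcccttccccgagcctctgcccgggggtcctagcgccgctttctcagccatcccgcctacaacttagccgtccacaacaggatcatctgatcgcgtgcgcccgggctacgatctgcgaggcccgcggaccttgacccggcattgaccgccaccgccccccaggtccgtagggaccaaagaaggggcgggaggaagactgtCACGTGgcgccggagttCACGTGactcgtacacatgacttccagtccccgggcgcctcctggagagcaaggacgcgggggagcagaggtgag
ATP6V0D1: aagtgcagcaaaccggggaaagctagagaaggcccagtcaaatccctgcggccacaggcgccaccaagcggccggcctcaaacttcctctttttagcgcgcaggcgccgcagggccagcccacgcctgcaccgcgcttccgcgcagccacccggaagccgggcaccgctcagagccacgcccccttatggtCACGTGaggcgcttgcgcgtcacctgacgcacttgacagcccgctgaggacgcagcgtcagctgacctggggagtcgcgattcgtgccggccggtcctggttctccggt
ATG14: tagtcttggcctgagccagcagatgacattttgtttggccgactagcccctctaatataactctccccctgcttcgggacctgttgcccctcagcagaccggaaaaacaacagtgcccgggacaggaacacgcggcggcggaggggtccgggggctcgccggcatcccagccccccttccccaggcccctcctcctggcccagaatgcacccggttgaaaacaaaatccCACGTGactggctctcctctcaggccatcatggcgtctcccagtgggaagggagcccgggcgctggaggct
LAMP1: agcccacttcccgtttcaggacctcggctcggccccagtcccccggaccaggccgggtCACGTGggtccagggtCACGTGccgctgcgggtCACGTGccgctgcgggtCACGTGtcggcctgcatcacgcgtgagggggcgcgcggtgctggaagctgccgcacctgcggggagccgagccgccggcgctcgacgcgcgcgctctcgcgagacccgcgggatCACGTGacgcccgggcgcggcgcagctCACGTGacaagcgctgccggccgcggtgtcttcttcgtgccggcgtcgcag
GAA: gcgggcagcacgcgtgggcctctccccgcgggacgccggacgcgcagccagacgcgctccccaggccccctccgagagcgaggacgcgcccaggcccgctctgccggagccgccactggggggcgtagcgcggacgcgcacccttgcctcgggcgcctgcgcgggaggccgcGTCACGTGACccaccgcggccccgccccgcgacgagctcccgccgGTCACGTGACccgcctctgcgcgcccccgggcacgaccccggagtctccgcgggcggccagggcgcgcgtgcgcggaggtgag

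The LAMP1 promoter holds CACGTG 6 times, more than any of the others shown, starting 192, 176, 159, 142, 28 and 1 bases before the start. MCOLN1 has its CLEAR element 16 bases before the start and a further CACGTG 41 bases before it. GAA has 2 CLEAR elements, 78 and 33 bases before the start. CTSA holds CACGTG at 42 and 25 bases, ATP6V0D1 at 59 and ATG14 at 21.

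Genes with and without these letters were among those that rose. Of 8 tested genes with CACGTG in the promoter 4 rose and none fell, with a median log2 fold change of 0.15. Among those 4, ATG14 lost its call in 11 of 15 alternative analyses. Of 33 without it 18 rose and 2 fell, with a median of 0.28. The shares among all tested genes were 29.3% raised and 29.4% lowered, and the difference between genes with and without CACGTG was not tested. The promoters of ULK1, GABARAPL1, OPTN, NBR1, MAP1LC3B and SQSTM1, all raised, do not hold CACGTG in this window. A match is a description of the sequence, and a missing match says only that these letters are not within these 300 bases.

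Lysosomal membrane protein genes moved unevenly, with 2 of 4 tested raised. MCOLN1 (ENSG00000090674, GRCh38 chr19:7522626-7534009), which encodes the calcium channel mucolipin 1, had 36.7, 39.7 and 36.1 CPM under vehicle and 54.5, 51.5 and 50.5 under SCH. It rose by a log2 fold change of 0.48 ± 0.066 (SE, adjusted p = 1.35e-06), and the groups do not overlap. LAMP2, needed for chaperone-mediated autophagy in one of its isoforms, rose by 0.20 ± 0.050.

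LAMP1, the most abundant lysosomal membrane gene of the group at a mean FPKM of 49.7 under vehicle, had 299.5, 298.5 and 287.3 CPM under vehicle and 305.6, 290.9 and 277.5 under SCH. The groups overlap, and the log2 fold change was -0.019 (-0.12 to 0.082). NPC1, the cholesterol exporter of the lysosomal membrane, gave -0.078 (-0.18 to 0.026). Scaling by library size alone turned the sign of both values, to 0.084 and 0.025, without a call.

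Among 7 lysosomal proteases, 4 rose and none fell. CTSL (ENSG00000135047, GRCh38 chr9:87725519-87731393), encoding the cysteine protease cathepsin L, had 76.3, 75.8 and 73.0 CPM under vehicle and 93.7, 93.9 and 94.2 under SCH. These SCH values were nearly equal and all higher, a log2 fold change of 0.32 ± 0.053 (adjusted p = 1.51e-05). TPP1, a tripeptidyl peptidase, rose by 0.37 ± 0.063, CTSB, encoding cathepsin B, by 0.30 ± 0.050, and CTSA, the protective protein for beta-galactosidase and neuraminidase, by 0.25 ± 0.053. CTSZ, encoding cathepsin Z and the most abundant protease of the group at a mean FPKM of 96.0, had a log2 fold change of 0.061 (-0.044 to 0.17). CTSD, encoding the aspartic protease cathepsin D, gave -0.055 (-0.16 to 0.047), or 0.048 with scaling by library size alone, and CTSH 0.030 (-0.17 to 0.23).

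Of 8 genes for glycosidases, a lipase and lipid-binding proteins, 3 rose and none fell, and the raised share of 37.5% is near the 29.3% of all tested genes. PSAP (ENSG00000197746, GRCh38 chr10:71816298-71851375), which encodes the precursor of the saposins that present sphingolipids to hydrolases, had the highest level of all 52 genes, with a mean FPKM of 208.8 ± 5.83 under vehicle and 281.1 ± 11.9 under SCH. Its CPM was 703, 717 and 679 under vehicle and 974, 938 and 901 under SCH. All SCH values were higher, a log2 fold change of 0.42 ± 0.046 (adjusted p = 4.53e-08). PSAP thus carried most of the group's gain in summed FPKM, which went from 371.1 to 467.7.

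GLA, the alpha-galactosidase A gene, rose by a log2 fold change of 0.38 ± 0.056, and NPC2, a soluble cholesterol carrier, by 0.28 ± 0.055. GAA, the acid alpha-glucosidase gene, gave 0.13 (-0.0037 to 0.26, adjusted p = 0.0892). The other 4, GUSB, GLB1, LIPA and HEXA, had log2 fold changes from -0.065 to 0.067 and intervals that include 0, and HEXA turned from -0.065 to 0.038 with scaling by library size alone. The rises in this group were thus those of 3 genes, while the other 5 stayed short of the threshold.

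Of 8 V-ATPase subunit genes 7 rose and none fell. ATP6V0A1 (ENSG00000033627, GRCh38 chr17:42458844-42522611), encoding a membrane subunit of the proton channel sector, had 74.6, 75.5 and 75.6 CPM under vehicle and 119.4, 122.2 and 114.7 under SCH. The groups stand far apart relative to their spread, with a log2 fold change of 0.66 ± 0.053 (adjusted p = 2.43e-10). ATP6V1A, the catalytic subunit, rose by 0.53 ± 0.060 and ATP6V1D, a part of the rotor stalk, by 0.52 ± 0.055.

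ATP6V0E1, a small membrane subunit with the highest level of the group, had 172.5, 165.2 and 167.1 CPM under vehicle and 187.1, 199.3 and 207.8 under SCH. It rose by a log2 fold change of 0.24 ± 0.051 with no overlap. ATP6V1B2, ATP6V0D1 and ATP6V1C1 rose by 0.23, 0.19 and 0.17, the last with an adjusted p of 0.0180 that passed the threshold in 10 of 15 alternative analyses. ATP6V1H, a regulatory subunit, gave 0.034 (-0.094 to 0.16). Summed over the 8 subunits, FPKM went from 192.3 ± 2.56 to 237.0 ± 9.65 (SD, n = 3).

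**Figure D2:**
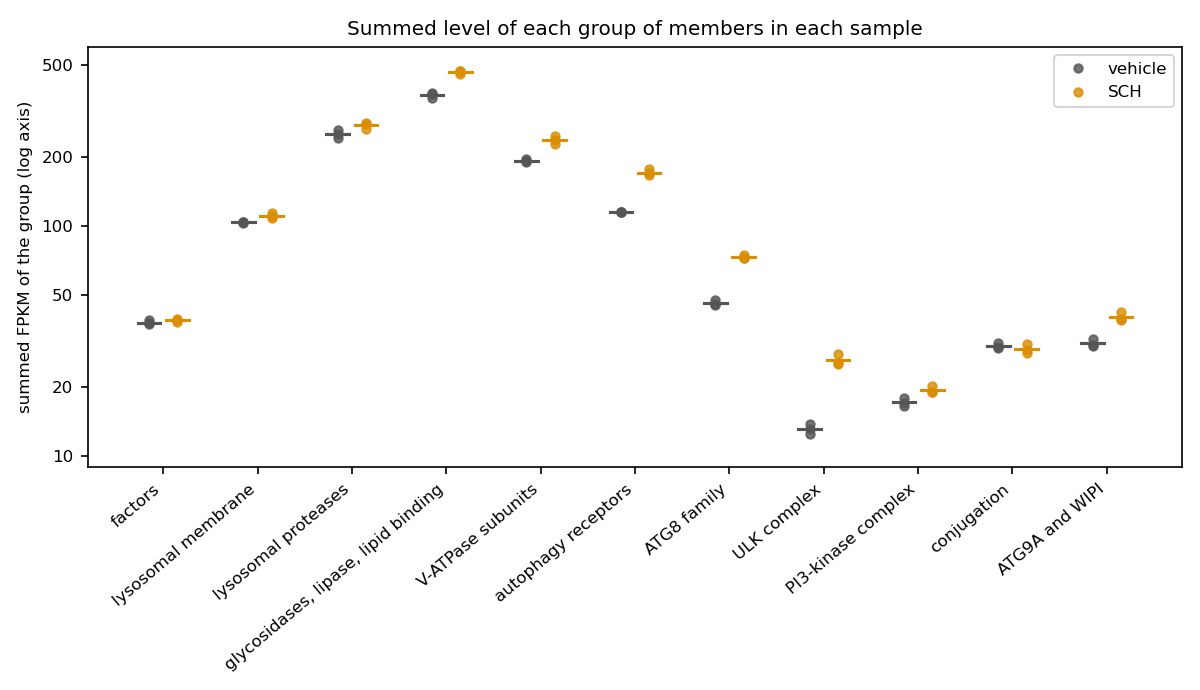
Summed FPKM (y axis, log scale) of each role group of the 52 genes (x axis) in the 3 vehicle and 3 SCH samples, with points for samples and short lines for means. SCH points lie above vehicle points for every group except the transcription factor and conjugation groups, which overlap.

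Among the 51 tested genes, the largest change was in the complex that starts autophagy. ULK1 (ENSG00000177169, GRCh38 chr12:131894651-131923167), the kinase that receives signals from mTORC1 and AMPK, had 29.8, 30.4 and 26.0 CPM under vehicle and 99.1, 86.2 and 86.3 under SCH. Each SCH sample was far above each vehicle sample, a 3.15-fold rise with a log2 fold change of 1.65 ± 0.072 (adjusted p = 6.22e-15). In level it went from a mean FPKM of 3.65 ± 0.31 to 11.6 ± 0.99.

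ATG13, the partner that links ULK1 to the rest of its complex and the highest in level of the group, had 67.0, 71.9 and 66.0 CPM under vehicle and 109.1, 103.5 and 101.7 under SCH. The groups do not overlap, with a log2 fold change of 0.62 ± 0.057 (adjusted p = 2.23e-09). ULK2, the paralogue of ULK1, had only 21, 13 and 13 counts under vehicle and 15, 22 and 15 under SCH. Its log2 fold change was 0.15, with a wide interval from -0.55 to 0.85, and -0.036 without SCH replicate 2. Of the summed FPKM of ULK1 and ULK2, ULK1 made up 97.8% under vehicle and 99.2% under SCH.

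Of 3 PI3-kinase complex genes 2 rose, by smaller log2 fold changes than those of ULK1 and ATG13. BECN1, encoding Beclin 1, the core scaffold of the complex, had 47.7, 47.6 and 43.4 CPM under vehicle and 60.4, 56.8 and 56.3 under SCH. It rose without overlap by a log2 fold change of 0.32 ± 0.063 (adjusted p = 1.32e-04). ATG14, the subunit that directs the complex to autophagy, had 36.2, 32.1 and 32.2 CPM under vehicle and 39.0, 36.4 and 37.3 under SCH, a rise of 0.17 ± 0.071 with an adjusted p of 0.0487 that was lost in 11 of 15 alternative analyses. UVRAG, the subunit of the alternative complex in endosomal traffic, gave -0.12 (-0.27 to 0.039).

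All 3 genes of the ATG9A and WIPI group, which supply and mark the growing membrane, rose. WIPI2, the protein that brings ATG16L1 to the membrane, had 107.9, 99.8 and 99.1 CPM under vehicle and 153.0, 145.1 and 141.5 under SCH. Its log2 fold change was 0.52 ± 0.054 (adjusted p = 1.68e-08), with no overlap. WIPI1 rose by 0.34 ± 0.065 and ATG9A, a lipid scramblase carried on vesicles, by 0.22 ± 0.065.

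Of the 4 ATG8 family genes among the 52, 3 rose. GABARAPL1 (ENSG00000139112, GRCh38 chr12:10212458-10223130) had 21.5, 21.9 and 20.5 CPM under vehicle and 50.5, 46.1 and 49.0 under SCH. Every SCH value was more than any vehicle value, a 2.27-fold rise with a log2 fold change of 1.18 ± 0.071 (adjusted p = 1.50e-12). MAP1LC3B (ENSG00000140941, GRCh38 chr16:87383995-87404779), the LC3 gene most used to follow autophagosomes, had 161.3, 159.7 and 172.6 CPM under vehicle and 251.5, 262.6 and 265.1 under SCH, also apart, with a log2 fold change of 0.66 ± 0.050 (adjusted p = 7.87e-11). GABARAPL2 rose by 0.33 ± 0.068.

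GABARAP itself had 32, 44 and 21 counts under vehicle and 58, 28 and 30 under SCH. Its groups overlap, and its log2 fold change of 0.27 had an interval from -0.36 to 0.90. Without SCH replicate 1, the sample with 58 counts, the value was -0.18, and without vehicle replicate 2 it was 0.58. Within the summed FPKM of the 4 ATG8 genes among the 52, MAP1LC3B held 64.6% ± 1.10 under vehicle and 64.8% ± 1.07 under SCH. Other LC3 genes, such as MAP1LC3A and MAP1LC3B2, are not in that sum. GABARAP, which is in it, shares 55.7% of its exon bases with other genes, and the effect on these shares was not tested. GABARAPL1 went from 10.9% ± 0.65 to 15.7% ± 0.82 and GABARAPL2 from 22.9% ± 0.23 to 18.3% ± 0.58. Neither overlapped between groups, and an exact two-sided permutation test gave p = 0.1, as low as groups of 3 can reach.

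**Figure D3:**
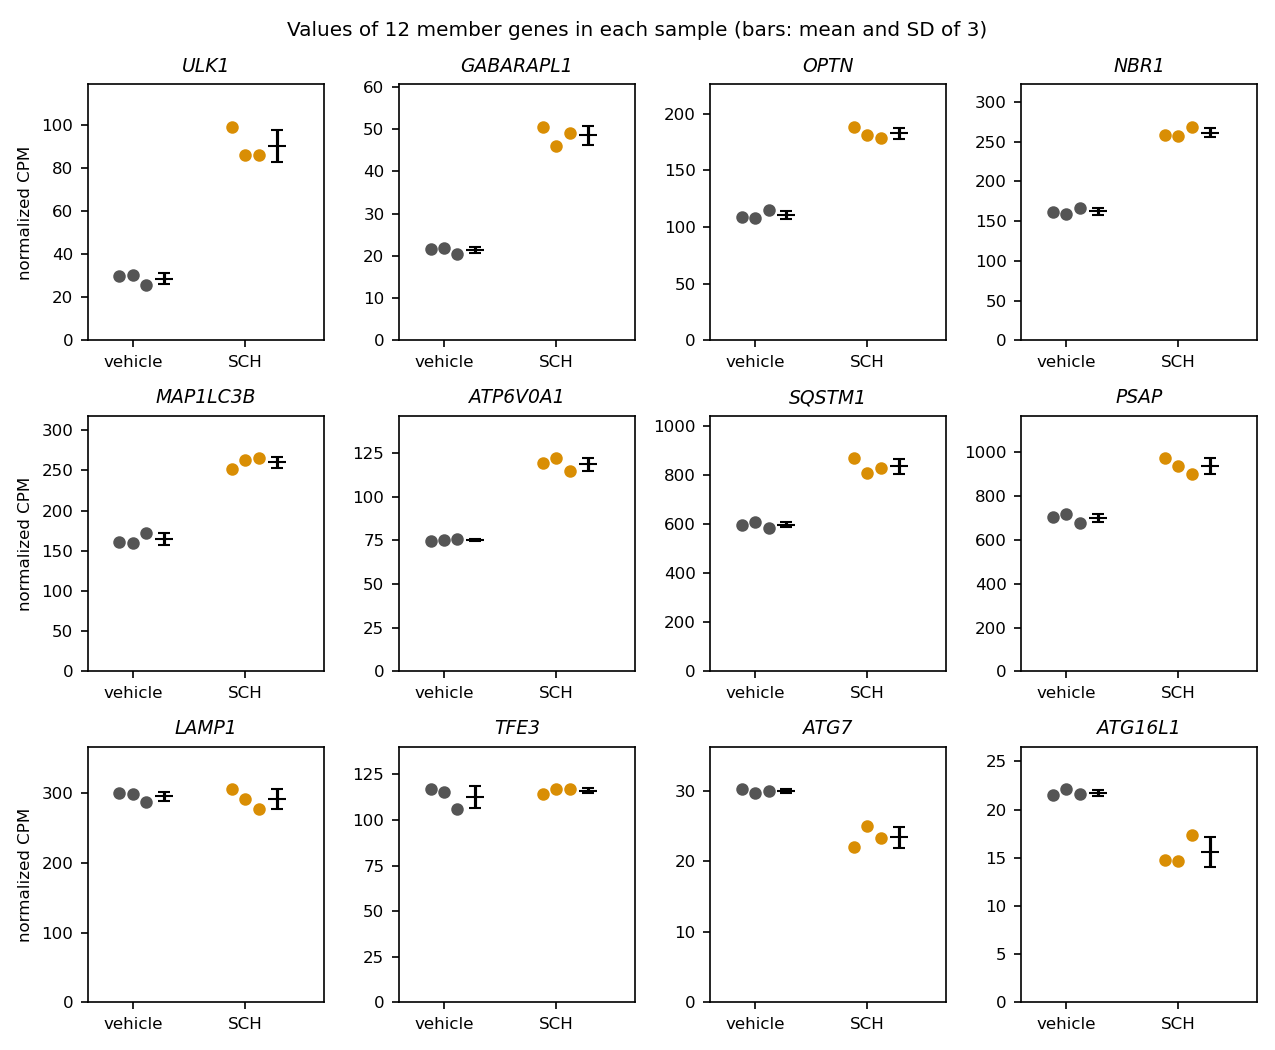
Normalized CPM (y axis, linear from 0) of 12 lysosome and autophagy genes in each sample, vehicle in grey and SCH in orange, with bars for the mean and SD of 3 samples. In ULK1 the vehicle points lie between 26.0 and 30.4 and the SCH points between 86.2 and 99.1; LAMP1 and TFE3 overlap, and ATG7 and ATG16L1 lie lower under SCH.

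Both lowered members belong to the conjugation machinery, where 2 of 5 genes fell and none rose, beside 29.4% lowered among all tested genes. ATG16L1 (ENSG00000085978, GRCh38 chr2:233210051-233295674), which positions the enzyme that lipidates LC3, had 21.5, 22.1 and 21.6 CPM under vehicle and 14.7, 14.7 and 17.4 under SCH. It fell by 0.48 ± 0.089 on the log2 scale (adjusted p = 7.28e-05), with no overlap. ATG7 (ENSG00000197548, GRCh38 chr3:11272309-11557665), the E1-like enzyme that activates ATG12 and the ATG8 proteins, had 30.2, 29.6 and 30.0 CPM under vehicle and 22.0, 25.0 and 23.3 under SCH. It fell by 0.35 ± 0.075 on the log2 scale (adjusted p = 3.22e-04), again without overlap.

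The other 3 conjugation genes did not pass the threshold. ATG3, the E2-like enzyme and the most abundant of the group, had 64.5, 66.5 and 66.8 CPM under vehicle and 59.1, 63.0 and 65.5 under SCH, a log2 fold change of -0.076 (-0.20 to 0.046) that became 0.027 with scaling by library size alone. ATG5 gave 0.10 (-0.038 to 0.24) and ATG12, its partner in the conjugate, 0.14 (0.012 to 0.28, adjusted p = 0.0574). Summed FPKM of the group was 30.2 ± 0.79 under vehicle and 29.2 ± 1.33 under SCH, so the group as a sum was within its spread.

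All 3 receptor genes rose. OPTN (ENSG00000123240, GRCh38 chr10:13099449-13138308), encoding optineurin, a receptor for damaged mitochondria and bacteria, had 108.7, 107.8 and 114.6 CPM under vehicle and 188, 181 and 178 under SCH. NBR1 (ENSG00000188554, GRCh38 chr17:43170481-43211689), a receptor for ubiquitinated cargo and peroxisomes, had 161.9, 158.4 and 166.9 CPM under vehicle and 258.3, 257.4 and 268.1 under SCH. In both, every SCH sample exceeded every vehicle sample, with log2 fold changes of 0.73 ± 0.051 (adjusted p = 2.21e-11) and 0.69 ± 0.048 (adjusted p = 2.25e-11).

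SQSTM1 (ENSG00000161011, GRCh38 chr5:179806398-179838078), encoding p62, the receptor that is itself degraded by autophagy, was the most abundant receptor. It had 599, 608 and 586 CPM under vehicle and 870, 808 and 831 under SCH. The groups do not overlap, with a log2 fold change of 0.48 ± 0.046 (adjusted p = 4.01e-09), and FPKM went from 75.5 ± 1.43 to 106.1 ± 4.24. Transcript levels alone do not measure the flow of cargo through autophagy.

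Exons shared with other genes make some values uncertain. In 7 of the 52 genes over 20% of the exon bases also belong to another gene in GENCODE 29. The shares were 55.7% for GABARAP, 52.7% for CTSD, 38.8% for ATG9A, 30.9% for CLN3, 28.5% for CTSA, 28.1% for WIPI1 and 22.0% for SQSTM1, and 4 of the 7 rose. On the same strand alone the shares were 41.7% for CTSD, 38.8% for ATG9A, 30.5% for GABARAP and 25.2% for CLN3. No strand setting could tell the reads apart there. The same-strand partners had mean counts of 8.67, 2.17, 0 and 0.667, in that order. Whether reads in the shared exons went uncounted was not tested. Overlaps on the opposite strand matter only if the counting ignored strand, and that setting is not given in the sources used here. MAP1LC3B also has a near-identical copy, MAP1LC3B2, whose log2 fold change was 0.48.

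Gene span moved with the direction of change in all tested genes. Of the 1021 tested genes that span over 200 kb, 14.6% rose and 55.9% fell, with a median log2 fold change of -0.36, against 30.4% and 27.4% of the 13715 shorter ones. Among the lysosome and autophagy genes 5 are that long, UVRAG, ATG7, ATG5, MITF and LIPA, and of these none rose and ATG7 fell. The 46 shorter ones had 29 raised, 1 lowered and a median of 0.24. The part of span in the ATG7 result was not tested.

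Other genes of the pathway, 137 that are not among the 52, also rose more often than they fell. Of 132 tested, 75 rose (56.8%) and 20 fell (15.2%), with a median log2 fold change of 0.24. Among all tested genes the shares were 29.3% raised and 29.4% lowered, and no test was made of the sets.

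Of 33 other hydrolase genes 21 rose and 5 fell. SMPD1, encoding acid sphingomyelinase, a sphingolipid hydrolase, had 34.0, 32.5 and 29.7 CPM under vehicle and 99.5, 99.9 and 94.6 under SCH. LGMN, encoding the asparaginyl protease legumain, had 70.6, 73.5 and 69.9 CPM under vehicle and 183.6, 178.8 and 177.0 under SCH. Both SMPD1 and LGMN rose without overlap, by log2 fold changes of 1.61 ± 0.063 (adjusted p = 9.09e-16) and 1.33 ± 0.051 (adjusted p = 6.95e-16).

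The largest log2 fold changes of the pathway were in 2 genes of low count, CTSV and MAP1LC3A, which fell outside the count minimum for named genes and were named after their values were seen. CTSV, encoding cathepsin V, had 13, 16 and 14 counts under vehicle and 70, 69 and 77 under SCH, and rose by 2.32 ± 0.24. MAP1LC3A, an LC3 gene of the ATG8 family, had 8, 7 and 9 counts under vehicle and 32, 36 and 29 under SCH, and rose 4.01-fold (SE 0.33 on the log2 scale). Neither overlapped between groups.

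CTSC, encoding cathepsin C, which activates serine proteases, went the other way. It had 510.7, 494.1 and 507.1 CPM under vehicle and 194.2, 201.0 and 201.2 under SCH, and fell by 1.34 ± 0.046 on the log2 scale (adjusted p = 1.10e-16). ARSB, the arylsulfatase B gene, which spans 208.9 kb, fell by 1.21 ± 0.076, and PPT1, a palmitoyl thioesterase gene that shares 23.4% of its exon bases with another gene, fell by 0.55 ± 0.055. Cathepsin genes thus moved in both directions, with CTSC down and CTSL and CTSB up.

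Of 22 tested genes of the other autophagy machinery 15 rose and 2 fell, and of 13 other receptors 8 rose and 1 fell. ATG2A, a lipid transfer protein that feeds the growing membrane, rose by a log2 fold change of 1.02 ± 0.056 (adjusted p = 3.62e-13). RB1CC1, encoding FIP200, the scaffold of the ULK complex, rose by 0.86 ± 0.067, beside ULK1 and ATG13. BNIP3L, a receptor for mitochondria, rose by 0.90 ± 0.056. The other V-ATPase subunits had 8 of 13 tested raised and 2 lowered, and the genes that sort enzymes to the lysosome 1 of 6 raised and none lowered.

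Of 15 other lysosomal membrane genes 7 rose (46.7%) and 5 fell (33.3%), the latter near the 29.4% of all tested genes. TPCN1, a lysosomal cation channel, fell by 0.59 ± 0.066 on the log2 scale (adjusted p = 6.04e-08), while MCOLN1, the calcium channel of the same membrane, rose.

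**Figure D4:**
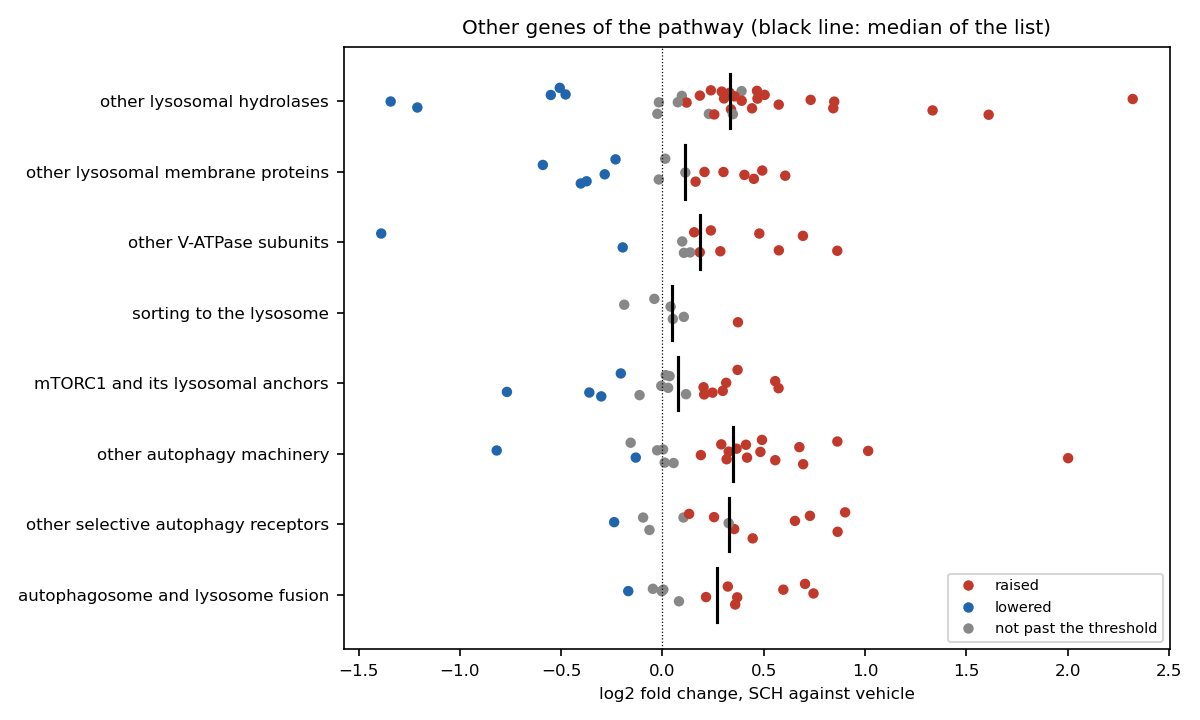
Log2 fold change of SCH against vehicle (x axis) of the 132 tested other genes of the pathway, 1 point per gene, in 8 lists (y axis), with a black line at each list's median. Raised genes are red, lowered blue and others grey; the medians run from 0.046 for sorting to 0.35 for the other autophagy machinery, and the hydrolases spread widest.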

How the data were processed

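RNA was sequenced from 3 vehicle and 3 SCH samples. The authors deposited a table of unnormalized gene counts and, for each sample, FPKM values. The submitters' processing notes name CASAVA 1.8, HISAT2 2.0.5, featureCounts 1.5.0-p3 and DESeq2 1.20.0, without their order, and GRCh38. Within a sample FPKM was proportional to the count over gene length.

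The fit used edgeR 4.0.16 under R 4.3.3 (TMM, filterByExpr, quasi-likelihood test of SCH against vehicle, Benjamini-Hochberg over 14736 tested genes, threshold 0.05). A standard error was taken as the size of the log2 fold change over the root of its F statistic. The procedure was tested on simulated counts with a common dispersion, in which few genes changed, up or down at random. SCH changed 58.7% of tested genes here, a setting which that simulation did not cover. FPKM was used for approximate levels between genes, with all annotated exons as gene length, and summed over groups. No 2 libraries of a group were copies. Whether repeats were separate cultures is known only from their description as biological repeats. Depth was 16836369 to 20291379 counts per sample, with a common biological coefficient of variation of 5.17%. At the depth of these libraries, genes with few counts have wide intervals.

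The members, the lists and the rule for named genes were chosen with earlier results of these data known. The rule names the 3 transcription factors, the ATG8 genes, the member of each role group with the smallest p in each direction and the one with the highest FPKM, and the 5 largest rises and 5 largest falls among other pathway genes past the threshold that average 100 counts or more and whose groups lie apart. Further members may be named with their values. Exon overlap used GENCODE 29, where start and end of all 52 genes matched. Alternatives were scaling by upper quartile, RLE or library size only, no filter, a minimum of 10 counts per sample, DESeq2 1.42.0, limma 3.58.1 on log2(FPKM + 1) and log2(FPKM + 0.1), a replicate block, and each sample left out.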

Additional observations from a re-analysis of the deposited data

How the results depend on the processing

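The counts of genes that rose and fell kept within 1.5 times of their values in all 15 alternatives, and no call among the 51 genes and the 10 other named genes whose values were followed changed direction. Among genes without a call, the sign turned for LAMP1, NPC1, CTSD, HEXA and ATG3 with library size only and for MITF, LIPA, GLB1 and CTSH with upper quartile scaling. Leaving out a sample turned it for TFE3, GUSB, GLB1 and CTSH (vehicle replicate 3: -0.00017, -0.0014, -0.017 and -0.011), MITF (vehicle replicate 2: -0.045), LIPA (vehicle replicate 1: -0.050; SCH replicate 2: -0.012), LAMP1 and CTSH (SCH replicate 3: 0.027 and -0.049), GABARAP (SCH replicate 1: -0.18) and ULK2 (SCH replicate 2: -0.036). The median log2 fold change of the 51 genes, 0.22, was 0.32 with library size only, 0.18 with upper quartile scaling and 0.24 with no filter on low counts. With library size only the median of all tested genes was 0.099 and the share of raised genes among all changed ones went from 49.9% to 62.6%, while 35 lysosome and autophagy genes rose and 2 fell. With each sample left out in turn, changed genes numbered 7809 to 8489, raised members 27 to 30, lowered members 2, the median 0.21 to 0.23, raised other pathway genes 71 to 75 and lowered ones 18 to 21. DESeq2 called 28 raised and 2 lowered.

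Of the 51 genes 43 kept their side of the threshold throughout. ATG14 lost its call without vehicle replicate 2 (0.14) or 3 (0.14), or SCH replicate 1 (0.14), 2 (0.20) or 3 (0.18), and in 6 other alternatives. ATP6V1C1 lost it without vehicle replicate 1 (0.17) or 2 (0.16), or SCH replicate 2 (0.16) or 3 (0.15), and with upper quartile scaling. GAA gained a call without vehicle replicate 2 (0.17) or SCH replicate 3 (0.19), ATG5 without vehicle replicate 3 (0.16), and ATG12 without vehicle replicate 3 (0.17) or SCH replicate 1 (0.17). TFE3, CTSZ, GAA, GUSB, ATG5 and ATG12 also passed with library size only, as raised. The cause was not tested.

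Same-numbered samples showed no clear joint deviation (correlations 0.046, -0.022 and 0.022), and not every sample correlated best with its own number. With 3 samples per group this check cannot exclude a pairing by number. With a replicate block 8705 genes changed, 30 of the lysosome and autophagy genes rose and 2 fell with a median of 0.22, and 74 other pathway genes rose and 20 fell; of the 51, only ATG12 moved across the threshold (0.14, adjusted p = 0.0484). GABARAP, ULK2, TFEB and CLN3 had few counts, which leaves wide intervals for the first 3 and no test for CLN3. GABARAP and CLN3 also share exons with other genes, and the cause of their low counts was not tested.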

Other observations

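Genes of mTORC1, the growth kinase complex that sits on the lysosome, and of its anchors moved in both directions, with 8 of 18 raised (44.4%) and 4 lowered (22.2%), against 29.3% and 29.4% of all tested genes, and a median log2 fold change of 0.076. RPTOR, encoding the subunit raptor that binds substrates, had 103.8, 105.2 and 100.5 CPM under vehicle and 62.0, 65.2 and 54.7 under SCH. It fell by 0.77 ± 0.062 on the log2 scale (adjusted p = 2.66e-10) without overlap, and it spans 421.6 kb. MLST8, RHEB and LAMTOR2 also fell, by 0.30, 0.21 and 0.36 on the log2 scale. Of the small GTPases that bring mTORC1 to the lysosome, RRAGA, RRAGC and RRAGD rose by log2 fold changes of 0.56, 0.37 and 0.57, while RRAGB gave -0.0060. The kinase gene MTOR rose by 0.20 and the genes of its inhibitor, TSC1 and TSC2, by 0.31 and 0.21.

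Of 12 genes for the fusion of autophagosomes with lysosomes 7 rose and 1 fell, with a median log2 fold change of 0.27. PLEKHM1, an adaptor between RAB7 and the tethering complex, rose by 0.75, and the tethering complex genes VPS16, VPS39 and VPS18 by 0.70, 0.60 and 0.32. VPS11, VPS33A and VPS41, of the same tethers, gave -0.0038, -0.047 and 0.0043. The GTPase gene RAB7A fell by 0.17 on the log2 scale (adjusted p = 0.00399 by edgeR's quasi-likelihood test). These genes other than RPTOR were named after their values were seen.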
